A study of Mus musculus with 4 samples.

Results

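The genes described are the aryl hydrocarbon receptor gene *Ahr*, its partner *Arnt*, its repressor *Ahrr*, and the classic targets *Cyp1a1*, *Cyp1b1*, *Tiparp* and *Nqo1*. They were taken by symbol, and all 7 are among the 31053 genes listed in each library. The libraries held liver mononuclear cells of C57BL/6 mice aged 8 to 10 weeks, measured with the 10x Genomics 5′ single-cell RNA assay. Naïve mice received no concanavalin A (ConA), a plant lectin that activates T cells and causes hepatitis in mice. The other groups received ConA with vehicle (ConA+Veh), with the dioxin TCDD (ConA+TCDD) or with FICZ, a tryptophan-derived compound (ConA+FICZ), and cells were taken 24 hours after ConA. Both added compounds are ligands of the receptor. Each group has 1 library, the sources used here do not give the number of mice behind it or the dose and timing of FICZ, and no genotype other than the strain is named.

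AhR is a transcription factor of the bHLH-PAS family that waits in the cytoplasm in a complex with Hsp90. When a ligand binds, it enters the nucleus, pairs with Arnt and binds DNA at sites with the core GCGTG. The pair switches on the monooxygenase genes *Cyp1a1* and *Cyp1b1*, whose enzymes oxidise many of the ligands, and the quinone reductase gene *Nqo1*. It also switches on *Ahrr*, whose product competes for Arnt, and *Tiparp*, whose product ADP-ribosylates AhR, so that both act as feedback inhibitors. In liver, hepatocytes and endothelial cells are well known for strong *Cyp1a1* induction.

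The 7 genes are protein-coding. In GRCm38 they lie on chromosome 12 from 35497974 to 35535038 (*Ahr*, minus strand), chromosome 3 from 95434388 to 95497240 (*Arnt*, plus), chromosome 13 from 74211118 to 74292331 (*Ahrr*, minus) and chromosome 9 from 57687928 to 57703824 (*Cyp1a1*, plus). The others lie on chromosome 17 from 79701537 to 79715061 (*Cyp1b1*, minus), chromosome 3 from 65528410 to 65555518 (*Tiparp*, plus) and chromosome 8 from 107388225 to 107403206 (*Nqo1*, minus). RefSeq promoter sequences, on GRCm38.p6, were found for 6 of the 7 genes, all but *Ahr*. The GCGTG core, read on either strand, was present in the 250 bases before the start of 5 of these 6, against 28.16% of 32851 mouse promoters of the same length. The start is that of the promoter sequence, and for *Cyp1a1* this window lies inside the gene interval given above. *Nqo1* had none in this window. *Ahrr* held 3 cores, at 107, 82 and 27 bases before the start, and 8.633% of all promoters held at least 2. The longer form TNGCGTG, which contains the core, was present in *Ahrr* alone and in 4.1% of all promoters. The promoters of *Cyp1a1*, *Cyp1b1* and *Ahrr* are shown, the first 2 since these genes were higher with FICZ in endothelial cells, the last since it held the most cores. Capitals mark the core, which reads CACGC where it lies on the other strand.
Cyp1a1, chr9:57697363-57697612, plus strand: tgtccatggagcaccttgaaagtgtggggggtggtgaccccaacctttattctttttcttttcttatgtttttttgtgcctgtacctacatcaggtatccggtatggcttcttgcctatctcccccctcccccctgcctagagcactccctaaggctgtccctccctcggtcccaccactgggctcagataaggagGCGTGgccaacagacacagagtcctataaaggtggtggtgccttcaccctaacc
Cyp1b1, chr17:79715062-79715311, minus strand: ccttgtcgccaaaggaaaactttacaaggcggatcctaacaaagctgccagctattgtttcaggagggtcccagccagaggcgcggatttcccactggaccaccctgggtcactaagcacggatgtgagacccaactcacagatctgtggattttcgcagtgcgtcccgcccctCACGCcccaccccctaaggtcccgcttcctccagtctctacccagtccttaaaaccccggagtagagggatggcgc
Ahrr, chr13:74292332-74292581, minus strand: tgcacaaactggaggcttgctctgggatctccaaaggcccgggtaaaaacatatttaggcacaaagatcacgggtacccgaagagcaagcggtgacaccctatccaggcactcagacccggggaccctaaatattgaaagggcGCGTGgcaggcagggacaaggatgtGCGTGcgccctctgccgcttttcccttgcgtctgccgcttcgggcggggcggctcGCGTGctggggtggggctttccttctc
These matches describe letters in a window, and no binding was measured.

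The 4 libraries held 9300 cells and 53299662 UMIs, between 1880 and 2779 cells each, with a median of 2161 to 3984 UMIs per cell, lowest in Naïve. Cells were assigned to 16 classes by the number of distinct marker genes each cell held, which placed 82.98 to 94.92% of a library. Between 16 and 29 cells of a library carried a barcode also seen in another library. The monocyte gate of ConA+TCDD was led by *C1qb* and held 1 monocyte against 2 macrophage markers among its 10 leading genes, so that the macrophage and monocyte gates are also given joined. Where 4 values follow each other, they are in library order: Naïve, then ConA+Veh, then ConA+TCDD, then ConA+FICZ. A level is the UMIs of a gene summed over the cells of a class per 1000000 UMIs of that class (CPM), with its exact 95% Poisson interval. Differences are log2 ratios of CPM with an exact 95% interval. The intervals cover counting error only and are too narrow where a few cells hold most UMIs. With 1 library per group no test was possible and no p-value is given. In a comparison of whole libraries, fewer cells of a type and less RNA per cell cannot be told apart. A ratio of at least 2 in either direction, with at least 20 UMIs in both libraries together and at least 20 cells in each, is counted as higher or lower.

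The 7 genes fell into widely and narrowly found genes. *Tiparp*, *Ahr* and *Arnt* had 1833, 1551 and 905 UMIs, spread over lymphocytes and myeloid cells. *Cyp1a1* had 147, *Cyp1b1* 85, *Nqo1* 49 and *Ahrr* 13 UMIs, and the first 2 were found largely in the few endothelial and stellate cells. Of the *Cyp1a1* UMIs, 90.48% were in endothelial-gated cells. Of the *Cyp1b1* UMIs, 49.41% were in endothelial-gated and 40.0% in stellate or fibroblast-gated cells. Endothelial-gated cells also held 44.9% of the *Nqo1* UMIs, and the rest were spread over other classes.

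**Figure D1:**
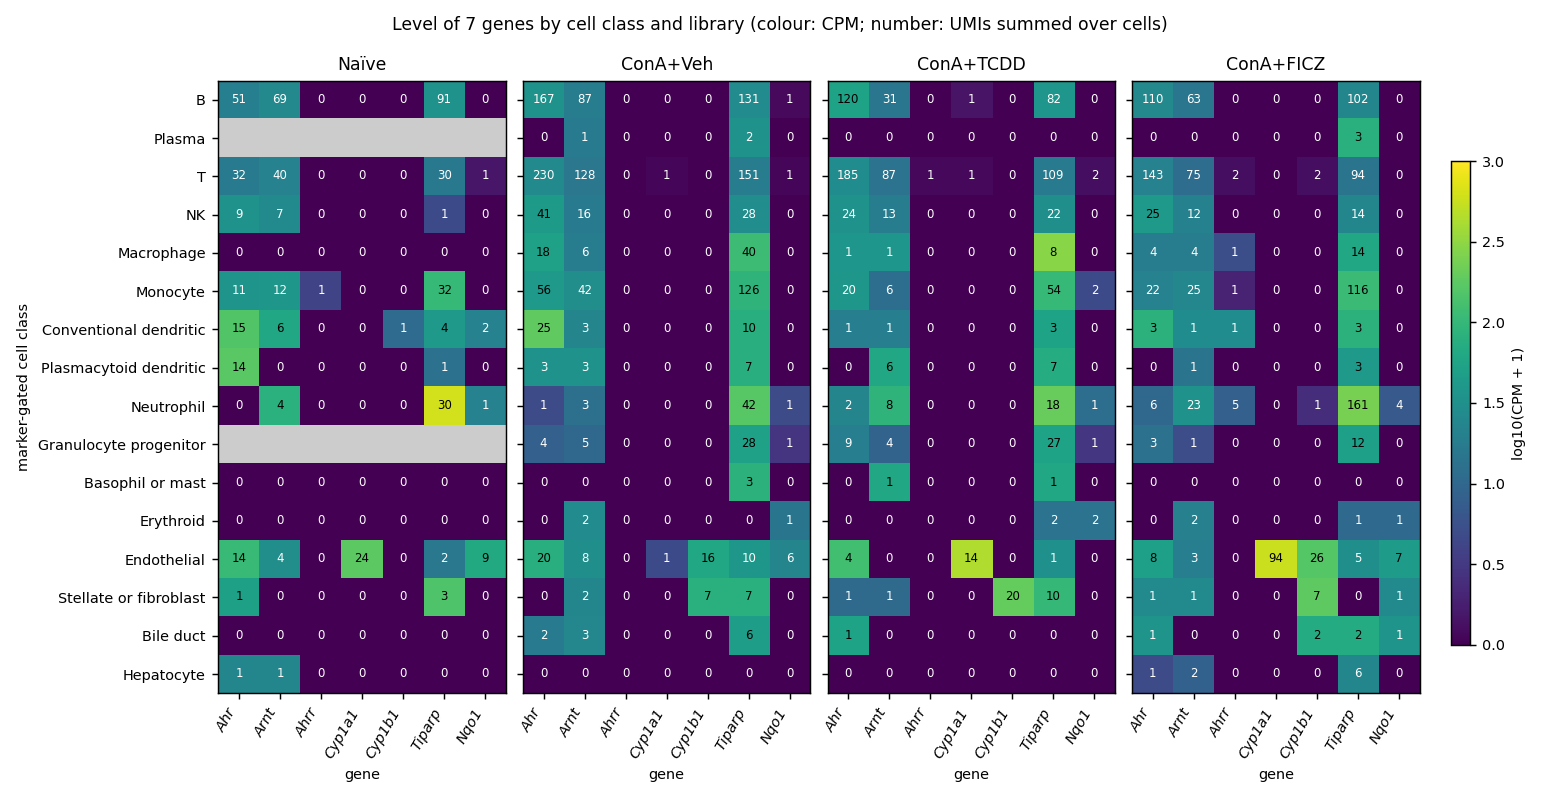
Level of each gene in each marker-gated class (y axis) of each library, as colour on a log10(CPM + 1) scale, with the summed UMIs printed in each field and grey where the library had no cell of the class. *Cyp1a1* is bright in the endothelial row of Naïve, ConA+TCDD and ConA+FICZ (24, 14 and 94 UMIs) but not of ConA+Veh (1 UMI), whereas *Ahr*, *Arnt* and *Tiparp* are found in most rows.

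*Cyp1a1*, the classic indicator gene of AhR activation, was far higher in the endothelial-gated cells of ConA+FICZ than of ConA+Veh. The gate held 43, 67, 8 and 42 cells in library order, with 24, 1, 14 and 94 *Cyp1a1* UMIs in 1, 1, 2 and 7 of them. Naïve stood at 176.6 CPM (113.2 to 262.8), ConA+Veh at 3.73 CPM (0.0944 to 20.8), ConA+TCDD at 434.6 CPM (237.6 to 729.1) and ConA+FICZ at 574.9 CPM (464.6 to 703.6). With all cells counted, ConA+Veh was thus the low library, and its interval overlapped none of the others. For FICZ over vehicle the log2 ratio was 7.27 (4.76 to 12.59), the highest of the 3475 genes with at least 20 UMIs in these cells, of which 4.09% were at least 2-fold higher and 4.14% at least 2-fold lower. For TCDD over vehicle it was 6.87 (4.15 to 12.27), given although 8 cells are below the minimum of 20, a choice made after the data were seen. Both contrasts share the ConA+Veh library, which held a single *Cyp1a1* UMI in this gate. ConA+Veh was also below Naïve, by a ratio of −5.57 (−10.93 to −2.95), in a comparison where 11.9% of genes were at least 2-fold lower and 12.2% higher.

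How many cells carried these UMIs differed between the libraries. The 7 *Cyp1a1* cells of ConA+FICZ held 3, 4, 8, 12, 16, 20 and 31 UMIs, and without the highest of them the gate was still at 411.0 CPM (315.8 to 525.8). The 2 cells of ConA+TCDD held 1 and 13 UMIs, and without the second the level was 39.1 CPM from 1 UMI (0.989 to 217.6). All 24 UMIs of Naïve came from 1 cell with 14329 UMIs in total, without which *Cyp1a1* was at 0 in the other cells of that gate. The ConA+FICZ level therefore rests on several cells, the Naïve level on 1, and the ConA+TCDD level mostly on 1. Without their top cells, Naïve (0, up to 30.35 CPM) and ConA+TCDD overlapped the interval of ConA+Veh, whereas ConA+FICZ did not. After thinning each cell to 1000 UMIs, *Cyp1a1* was found in 11.8% of 34 endothelial-gated cells in ConA+FICZ (exact binomial interval 3.3 to 27.4%), 25% of 8 in ConA+TCDD (3.19 to 65.1%), 0 of 61 in ConA+Veh (up to 5.87%) and 2.56% of 39 in Naïve (0.0649 to 13.5%). Unthinned shares were 2.33, 1.49, 25 and 16.7% in library order. B-gated cells, taken as the background, had 0 of 764 thinned cells in ConA+FICZ and 0 of 386 in ConA+TCDD, at a median depth of 3613 and 3418 UMIs against 2361 and 3264 in the endothelial gate.

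Most *Cyp1a1* cells of ConA+FICZ also held *Vwf*, the gene of von Willebrand factor, which marks endothelium of larger vessels more than sinusoidal endothelium. All 5 *Vwf* cells of ConA+FICZ held *Cyp1a1*, with 82 UMIs together (1400 CPM), against 2 of 37 cells with no *Vwf* UMI (12 UMIs, 114.4 CPM). In ConA+Veh 1 of 12 *Vwf* cells and 0 of 55 others held it, and in ConA+TCDD the only *Vwf* cell (13 UMIs) and 1 of 7 others. Naïve went the other way, with 0 of 2 *Vwf* cells and 1 of 41 others (24 UMIs, 190.3 CPM). The *Vwf* cells were also the deeper ones, with a median of 10963 against 1986 UMIs in ConA+FICZ and 9946 against 2287 in ConA+Veh. They ranged from 10194 to 15068 UMIs in ConA+FICZ and from 1653 to 11336 UMIs in ConA+Veh. The part of depth in the *Cyp1a1* counts of *Vwf* cells was not tested. The split by *Vwf* was chosen after the data were seen. Which endothelial genes were found in the gate also differed between the groups. A change in the kinds of cell and a change in their expression cannot be told apart here. *Clec4g*, *Stab2* and *Cdh5* are also among the 8 markers that set the gate. *Clec4g*, a gene of sinusoidal endothelium, was found in 36 of 43, 2 of 67, 0 of 8 and 3 of 42 cells in library order, and *Stab2* in 38, 20, 2 and 18 of them. *Lyve1*, also a sinusoidal gene, went the other way, in 22, 50, 8 and 35 cells, and the pan-endothelial gene *Cdh5* was found in 31, 60, 8 and 35. In the Leiden clusters, 33 Naïve cells formed an endothelial cluster with no cell of another library. The part of this shift in the *Cyp1a1* difference from Naïve was not tested.

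**Figure D2:**
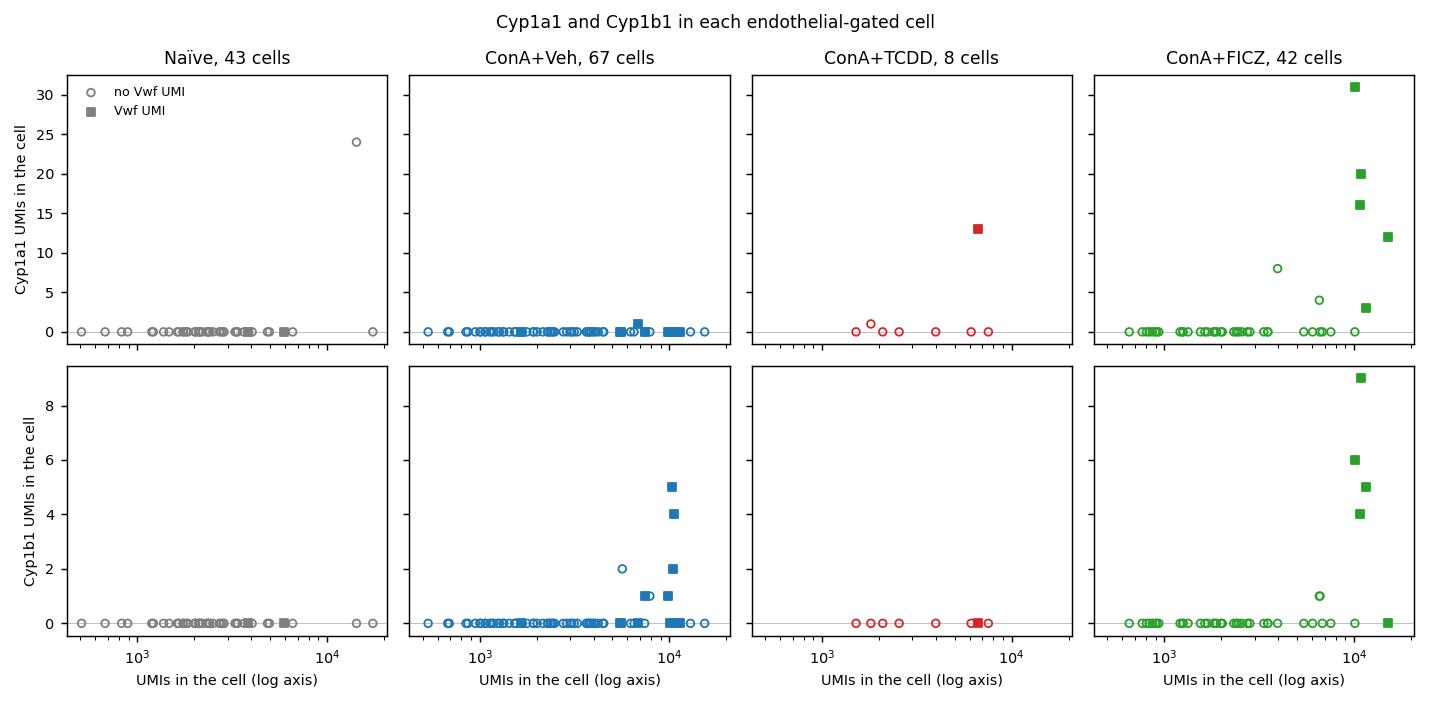
*Cyp1a1* UMIs (upper panels) and *Cyp1b1* UMIs (lower panels) in each endothelial-gated cell against the UMIs of that cell (log axis), with squares for cells that hold a *Vwf* UMI. In ConA+FICZ all 5 *Vwf* cells hold *Cyp1a1*, whereas in ConA+Veh 1 of 12 *Vwf* cells holds 1 UMI. The *Vwf* cells hold 10194 to 15068 UMIs in ConA+FICZ and 1653 to 11336 in ConA+Veh.

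Outside the endothelial gate *Cyp1a1* was found in few cells. T-gated cells of ConA+Veh held 1 UMI, and T- and B-gated cells of ConA+TCDD held 1 each. Unassigned cells held 11, of which 1 was in ConA+TCDD and 10 were in 1 cell of ConA+FICZ with 620 UMIs, the highest share of *Cyp1a1* in any cell. The gate set by hepatocyte markers held none in any library, with 25, 7, 1 and 146 cells in library order. In ConA+FICZ these 146 cells held 20922 UMIs of 8 hepatocyte genes, among them albumin, and 261764 UMIs in all, at which a count of 0 allows up to 11.5 CPM (3 counts). They were led by the hepatocyte genes *Fabp1*, *Saa2*, *Saa1* and *Fga*, none of which is among the 8 markers of the gate. Their median cell held 1036 UMIs against 3147 in the whole library, and their median mitochondrial share was 0% against 2.63%. Of the 146, 53 held only the minimum number of markers and 58 had the minimum lead. They are named here by the gate only, and their count of 0 gives no verdict on hepatocytes. Hepatocyte RNA was also higher in the endothelial-gated cells of ConA+FICZ, with 1382 CPM of the 8 genes (226 UMIs) against 126.7 CPM (34 UMIs) in ConA+Veh. The same genes were at 213.2 against 62.5 CPM in B cells and 82.8 against 14.6 CPM in T cells. The part of hepatocyte RNA in the *Cyp1a1* difference was not tested.

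*Cyp1b1*, a related monooxygenase of endothelial and mesenchymal cells, followed a different pattern in the same gate. Its endothelial UMIs were 0, 16, 0 and 26 in library order, in 0, 7, 0 and 6 cells. ConA+Veh stood at 59.6 CPM (34.1 to 96.8) and ConA+FICZ at 159 CPM (103.9 to 233), while the counts of 0 allow up to 22.1 CPM in Naïve and 93.1 CPM in the 8 cells of ConA+TCDD. Unlike *Cyp1a1* it was thus measurable with vehicle alone. The log2 ratio for FICZ was 1.42 (0.46 to 2.41), rank 60 of 3475 genes. It was 2.03 when cells with barcodes shared between libraries were left out, and without the top cell of each library the levels were 111.5 CPM (64.9 to 178.4) and 42.6 CPM (21.3 to 76.3), whose intervals overlap. In ConA+FICZ, 5 of the 6 *Cyp1b1* cells also held *Cyp1a1*. In ConA+Veh it was 0 of 7, but only 1 cell of that gate held *Cyp1a1*, so little overlap was possible. Most *Cyp1b1* UMIs of the gate also lay in the deeper *Vwf* cells, 24 of 26 in ConA+FICZ and 13 of 16 in ConA+Veh. They were in 4 of 5 and 5 of 12 such cells. Naïve had only 2 *Vwf* cells and ConA+TCDD 1. The stellate or fibroblast gate, with 2, 12, 12 and 3 cells, held 0, 7, 20 and 7 *Cyp1b1* UMIs, of which 6, 14 and 7 came from 1 cell in each of the ConA+Veh, ConA+TCDD and ConA+FICZ libraries, and no *Cyp1a1*. These cells are too few for a comparison. The remaining 9 UMIs outside both gates included 1 in a Naïve cell of the dendritic gate that also held 28 *Vwf* UMIs and 4 endothelial markers.

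**Figure D3:**
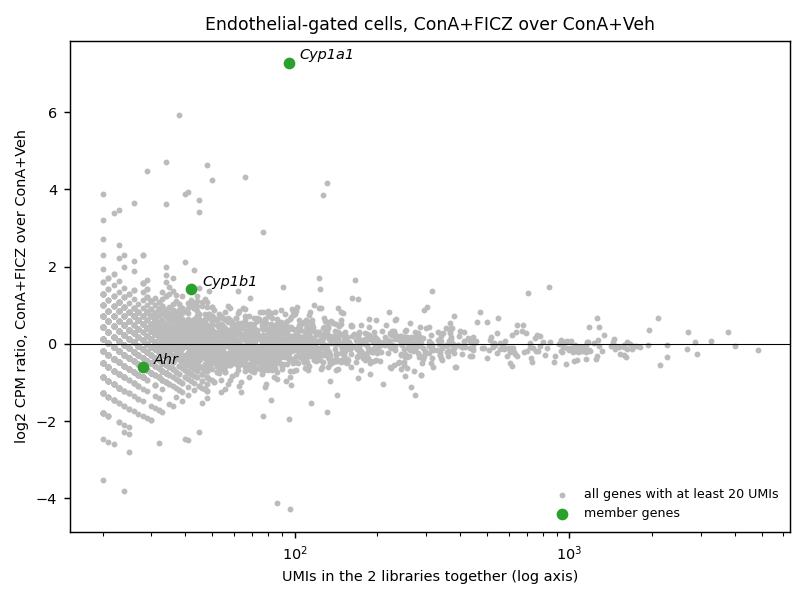
Log2 CPM ratio of ConA+FICZ over ConA+Veh in endothelial-gated cells (y axis) against the UMIs of both libraries together (log axis), for the 3475 genes with at least 20 UMIs in grey and the member genes in green. *Cyp1a1* is the highest point at 7.27, *Cyp1b1* is at 1.42 and *Ahr* at −0.61.

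*Nqo1*, a quinone reductase gene controlled by both AhR and Nrf2, and *Ahrr* were close to the detection limit. *Nqo1* had 13, 11, 9 and 16 UMIs in library order, of which 9, 6, 0 and 7 were in endothelial-gated cells. The endothelial gate of Naïve stood at 66.2 CPM (30.3 to 125.7), that of ConA+Veh at 22.4 CPM (8.21 to 48.7) and that of ConA+FICZ at 42.8 CPM (17.2 to 88.2), with overlapping intervals. In all cells the log2 ratio was 0.38 (−1.07 to 1.79) for TCDD and 0.81 (−0.39 to 2.06) for FICZ. ConA+Veh was below Naïve by −1.93 (−3.24 to −0.66), where 17.6% of genes were at least 2-fold lower. Of the 13 Naïve UMIs, 6 came from 1 endothelial cell, the same that held all 24 *Cyp1a1* UMIs of Naïve. These 6 are also among the 9 UMIs behind the 66.2 CPM of the Naïve endothelial gate. *Ahrr* had 2, 0, 1 and 10 UMIs. The 10 UMIs of ConA+FICZ lay in 9 cells, with 5 among the 263 neutrophil-gated cells, 2 in 1 T cell, and 1 each in the dendritic, macrophage and monocyte gates. With the floor of 3 counts in place of the 0 UMIs of ConA+Veh, *Ahrr* was 4.01-fold higher in ConA+FICZ over all cells. The counting interval of this log2 ratio had a lower bound of 1.43 and no upper bound. There were too few UMIs for *Ahrr* to be counted as higher. Neutrophils made up 10.29% of ConA+FICZ and 3.562% of ConA+Veh (99 cells), and within that gate the 7.43 CPM of ConA+FICZ lay below the 11.8 CPM that the 0 UMIs of ConA+Veh allow, so that no difference was detectable. No *Ahrr* UMI was found in endothelial-gated cells.

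*Ahr* itself was found in lymphocytes, dendritic cells, macrophages and endothelial cells, with few UMIs in neutrophils and none in erythroid-gated cells. In ConA+Veh the level was 74.5 CPM (45.5 to 115.1) in endothelial, 51.4 CPM (30.5 to 81.3) in macrophage, 41.8 CPM (29.98 to 56.7) in NK, 39.4 CPM (29.8 to 51.2) in monocyte, 34.0 CPM (29.1 to 39.6) in B and 26.0 CPM (22.8 to 29.6) in T-gated cells. Each of these intervals overlapped the next in that order. Neutrophil-gated cells were at 3.94 CPM (0.0998 to 21.97), below all 6. Conventional dendritic cells, fewer than 20 in every library, stood at 151.6 CPM (84.9 to 250.1) in 17 Naïve cells, 185.1 CPM (119.8 to 273.3) in 15 of ConA+Veh, 18.2 CPM (0.461 to 101.5) in 5 of ConA+TCDD and 83.3 CPM (17.2 to 243.4) in 11 of ConA+FICZ. The Naïve cell with 28 *Vwf* UMIs held 7 of the 15 UMIs there, and without it Naïve was at 97.8 CPM (42.2 to 192.7). Plasmacytoid dendritic cells had 14 UMIs in 22 Naïve cells, 170.8 CPM (93.4 to 286.6), and 3, 0 and 0 in the 22, 19 and 15 cells of the other libraries. The erythroid gate held no *Ahr* UMI in any library, where counts of 0 allow up to 242.4, 40.65, 19.6 and 28.62 CPM in library order. In ConA+Veh this bound lies above the B and T cell levels.

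In B cells *Ahr* was above vehicle with TCDD and below it with FICZ. Naïve B cells stood at 18.5 CPM (13.8 to 24.4), those of ConA+Veh at 34.02 CPM (29.1 to 39.6), of ConA+TCDD at 54.3 CPM (45.01 to 64.9) and of ConA+FICZ at 24.7 CPM (20.3 to 29.8), from 51, 167, 120 and 110 UMIs. ConA+TCDD was the highest, and its interval overlapped none of the others. The log2 ratio over vehicle was 0.67 (0.32 to 1.02) for TCDD, rank 483 of 9228 genes, and −0.46 (−0.82 to −0.10) for FICZ, and both directions held under the 8 alternatives tried. Neither reached 2-fold. The B cells of the libraries lay partly in different Leiden clusters, such as one with 146 cells of ConA+TCDD and 15 of ConA+Veh and one with 251 of ConA+FICZ and 10 of ConA+Veh, and most Naïve B cells (962) in one with 4 of ConA+Veh. Among the B cells with at least 2 of the activation genes *Mreg*, *Cd86* and *Cd200*, *Ahr* was at 27.2, 51.1, 90.7 and 29.5 CPM in library order. These came from 5, 21, 38 and 8 UMIs in 24, 34, 57 and 27 cells, and the ratio for TCDD was 0.83 (0.02 to 1.67).

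In T cells Naïve was the lowest for *Ahr*, at 16.5 CPM (11.3 to 23.3), with ConA+Veh at 26.04 CPM (22.8 to 29.6), ConA+TCDD at 27.7 CPM (23.9 to 32) and ConA+FICZ at 20.4 CPM (17.2 to 24.1). The TCDD ratio, 0.09 (−0.20 to 0.38), was within counting error, and the FICZ ratio was −0.35 (−0.66 to −0.04). CD8 T cells were at 8.28 CPM (3.04 to 18.02) in Naïve and 27.9 CPM (23.6 to 32.9) in ConA+Veh, a log2 ratio of 1.75 (0.60 to 3.23), and 14.3% of the 9058 genes tested in CD8 T cells were at least 2-fold higher in that comparison. NK-gated cells were at 34.04, 41.8, 32.8 and 40.8 CPM in library order, with ratios over vehicle of −0.35 (−1.14 to 0.41) for TCDD and −0.04 (−0.81 to 0.72) for FICZ.

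In the joined phagocyte gates *Ahr* was lower with FICZ. In the joined macrophage and monocyte gates Naïve stood at 33.5 CPM (16.7 to 59.95), ConA+Veh at 41.8 CPM (32.8 to 52.5), ConA+TCDD at 37.4 CPM (23.1 to 57.1) and ConA+FICZ at 20.04 CPM (13.1 to 29.4), so that ConA+FICZ lay below ConA+Veh with no overlap. The log2 ratio was −1.06 (−1.76 to −0.40) for FICZ, where 2.32% of 8136 genes were at least 2-fold lower, and −0.16 (−0.93 to 0.55) for TCDD. The macrophage gate alone had 18 UMIs in 84 cells against 4 in 61, a ratio of −1.58 (−3.60 to 0.02) where 4.04% of genes were at least 2-fold lower and 7.3% higher, and the monocyte gate 56 in 128 cells against 22 in 111, −0.93 (−1.71 to −0.20). With Leiden clusters, none of which was mostly macrophages, the one ratio left was that of the monocyte clusters, −0.86. The joined value was added after the data were seen. Over all cells, the share with an *Ahr* UMI was 2.61, 3.91, 3.97 and 3.12% in library order at 1000 UMIs per cell, and 5.66, 15.6, 15.4 and 10.8% unthinned. As background, 0 of 34 thinned erythroid-gated cells of ConA+Veh held one (up to 10.3%), at a median depth of 1275 UMIs against 3984 in the library.

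**Figure D4:**
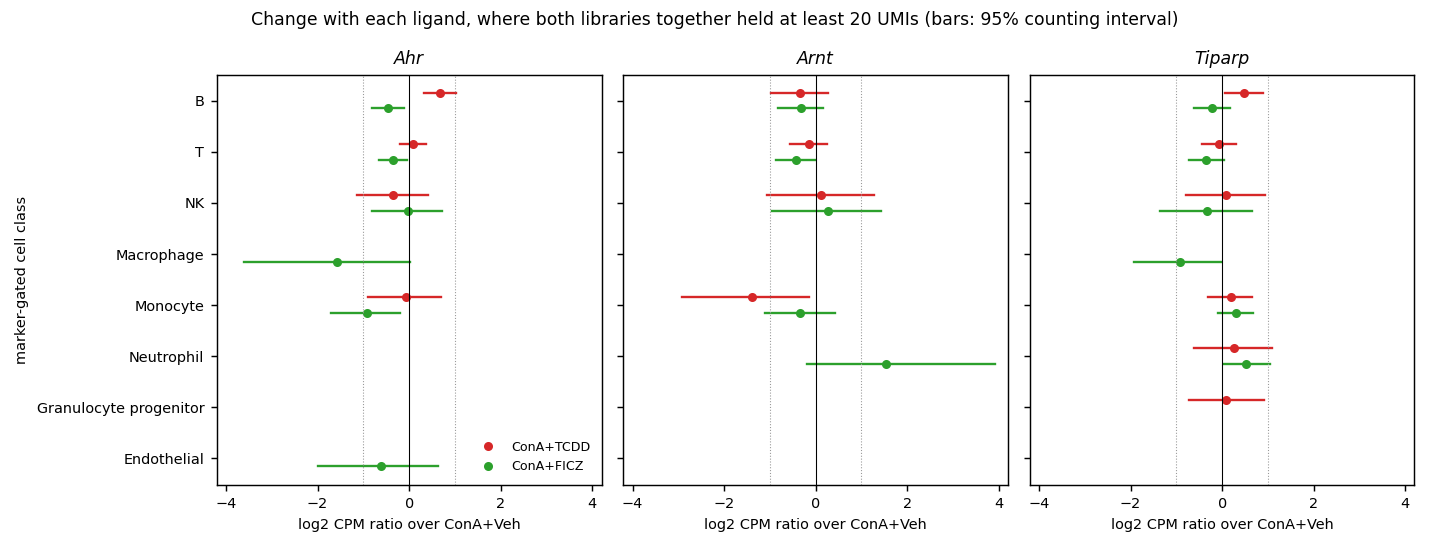
Log2 CPM ratio over ConA+Veh of *Ahr*, *Arnt* and *Tiparp* (x axis) in each class (y axis) where both libraries together held at least 20 UMIs, in red for ConA+TCDD and green for ConA+FICZ, with 95% counting intervals and dotted lines at 2-fold. For *Ahr* in B cells the 2 ligands lie on opposite sides of 0, at 0.67 and −0.46.

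*Arnt*, the constitutive partner of AhR, was found in lymphocytes, phagocytes and neutrophils. Over all cells Naïve stood at 25.03 CPM (21.2 to 29.4), ConA+Veh at 17.7 CPM (15.8 to 19.6), ConA+TCDD at 15.2 CPM (13.1 to 17.6) and ConA+FICZ at 14.5 CPM (12.7 to 16.5). Naïve lay above the ConA libraries on this scale. ConA+Veh was below it by a log2 ratio of −0.50 (−0.79 to −0.22), where the median of all genes was −0.23. In the B, T, NK and monocyte gates the ratio was −0.50, −0.51, −0.70 and −0.36, but the direction depended on the scaling. Taken as mean UMIs per cell the 4 ratios were 0.70, 1.09, 0.18 and 0.74, and with each cell scaled to 10000 UMIs before averaging they were −0.30, 0.16, 0.12 and 0.54. Over vehicle, *Arnt* in T cells was at −0.15 (−0.56 to 0.25) with TCDD and −0.43 (−0.87 to −0.01) with FICZ. CD4 T cells alone held 19 UMIs in ConA+Veh and 7 with either ligand, at −1.10 (−2.59 to 0.21) for TCDD and −1.04 (−2.54 to 0.27) for FICZ, where 2.84% and 5.04% of genes were at least 2-fold lower. In B cells the ratios were −0.34 (−0.98 to 0.27) and −0.32 (−0.81 to 0.16). Neutrophils held 4, 3, 8 and 23 UMIs in library order, at 82.2, 11.8, 88.1 and 34.2 CPM. There the FICZ ratio was 1.53 (−0.20 to 3.91), where 12.8% of genes were at least 2-fold higher. For TCDD it was 2.90 (0.84 to 5.45), where 6.23% of genes were at least 2-fold higher. ConA+Veh was below Naïve by −2.80 (−5.57 to −0.23), where 16.6% of genes were at least 2-fold lower. The last 2 ratios had too few UMIs to be counted. In the joined macrophage and monocyte gates 7 UMIs in ConA+TCDD stood against 48 in ConA+Veh, a ratio of −1.12 (−2.51 to 0.03), where 7.26% of genes were at least 2-fold lower.

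*Tiparp*, which encodes the ADP-ribosyltransferase that acts on AhR, was higher in neutrophils than in any other class with at least 20 cells in the same library. Naïve neutrophils stood at 616.4 CPM (415.9 to 879.9), those of ConA+Veh at 165.6 CPM (119.4 to 223.8), of ConA+TCDD at 198.3 CPM (117.5 to 313.3) and of ConA+FICZ at 239.1 CPM (203.6 to 279.1), from 30, 42, 18 and 161 UMIs in 15 of 23, 27 of 99, 13 of 42 and 106 of 263 cells. Naïve was the highest, with no overlap. ConA+Veh was below it by −1.90 (−2.61 to −1.17), where 16.6% of genes were at least 2-fold lower. FICZ was at 0.53 (0.03 to 1.06) over vehicle and TCDD at 0.26 (−0.62 to 1.09), where the medians of all genes were 0.22 and 0.11. Neutrophils had few *Ahr* UMIs in any library, at most 6. After thinning, 52.6, 13.95, 21.2 and 19.2% of neutrophil-gated cells held a *Tiparp* UMI in library order, against 0 of 34 erythroid-gated cells in ConA+Veh, at median depths of 2269 and 1275 UMIs in that library.

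In the other myeloid cells *Tiparp* was at an intermediate level, and in lymphocytes it was low. The joined macrophage and monocyte gates were at 97.5, 93.8, 110.4 and 100.2 CPM in library order, with overlapping intervals. The ratios over vehicle were 0.24 (−0.21 to 0.66) for TCDD and 0.10 (−0.25 to 0.44) for FICZ. Within them the macrophage gate was at 114.3 CPM in ConA+Veh and 60.2 CPM in ConA+FICZ, a ratio of −0.93 (−1.92 to −0.02). In ConA+TCDD it was at 293.3 CPM, 1.36 (0.05 to 2.48) over vehicle, from 8 UMIs in 11 cells, below the minimum of 20. B cells were at 33.1, 26.7, 37.1 and 22.9 CPM and T cells at 15.5, 17.1, 16.3 and 13.4 CPM in library order. With TCDD the B cell ratio was 0.47 (0.06 to 0.88), and 0.99 when each cell was scaled before averaging. The T cell ratios were −0.07 (−0.44 to 0.30) with TCDD and −0.35 (−0.73 to 0.03) with FICZ. NK cells had 1 UMI in Naïve against 28, 22 and 14 in the ConA libraries, and ConA+Veh stood above Naïve by 2.92 (0.32 to 8.27), where 9.26% of genes were at least 2-fold higher. In endothelial-gated cells, where *Cyp1a1* differed so widely, *Tiparp* had 2, 10, 1 and 5 UMIs, and the FICZ ratio was −0.29 (−2.18 to 1.40).

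Counted over all 7 genes and 16 classes, 49 of 112 pairs had at least 20 cells in both libraries for each contrast. They lay in 7 classes, which differed between the contrasts. The endothelial gate, with 8 cells in ConA+TCDD, and the macrophage gate, with 11, were counted for FICZ but not for TCDD. The granulocyte progenitor and erythroid gates were counted for TCDD but not for FICZ, so the 2 counts do not compare the ligands. With TCDD, 14 pairs had at least 20 UMIs, of which 0 were at least 2-fold higher and 1 was lower, against 2.91% higher and 3.8% lower of all genes in the same classes. The lower pair was *Arnt* in the monocyte gate, at −1.40 (−2.92 to −0.16), where 6.67% of genes were at least 2-fold lower. That gate failed the marker check in ConA+TCDD. With FICZ, 19 pairs were counted, of which 3 were higher (*Cyp1a1* and *Cyp1b1* in endothelial cells, *Arnt* in neutrophils) and 1 lower (*Ahr* in macrophages), against 3.98% higher and 2.91% lower of all genes. For ConA+Veh over Naïve, 15 pairs were counted, of which 1 was higher (*Tiparp* in NK cells) and 2 lower (*Tiparp* in neutrophils, *Cyp1a1* in endothelial cells), against 9.42% and 15% of all genes. The *Cyp1a1* pair reached the UMI minimum only through 1 Naïve cell with 24 UMIs. The *Tiparp* pair in NK cells had 1 UMI in Naïve against 28 in ConA+Veh. The median log2 ratio over the counted pairs was 0.08 for TCDD, −0.32 for FICZ and −0.31 for ConA+Veh over Naïve. The pairs that were left out had too few UMIs or cells, and the counting gives no verdict on them.

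Beyond the 7 members, further genes of the pathway were taken from lists. Among 10 genes known as AhR targets in immune cells, *Hic1*, a transcriptional repressor studied in intestinal immune cells, was higher with both ligands. It lies on chromosome 11 from 75164565 to 75169519 of GRCm38. Naïve T cells stood at 18.1 CPM (12.6 to 25.1), those of ConA+Veh at 9.4 CPM (7.48 to 11.7), of ConA+TCDD at 22.2 CPM (18.7 to 26.04) and of ConA+FICZ at 23.4 CPM (20 to 27.3), from 35, 83, 148 and 164 UMIs. In all T cells together ConA+Veh was the lowest and overlapped none of the others. The log2 ratio was 1.24 (0.84 to 1.64) for TCDD, where 1.06% of 10393 genes were at least 2-fold higher and *Hic1* ranked 62, and 1.32 (0.93 to 1.72) for FICZ, where 1.57% of 10435 were and it ranked 106. These ratios share the vehicle library. T cells also lay partly in different Leiden clusters: 182 and 156 cells of ConA+TCDD were in a pair with 8 and 9 of ConA+Veh, and 249 and 182 Naïve cells in a pair with 3 each. In CD8 T cells they were 1.40 (0.89 to 1.93) and 1.34 (0.83 to 1.85), where 1.11% and 1.59% of genes were at least 2-fold higher. In CD4 T cells they were 2.02 (0.96 to 3.21) and 1.25 (0.05 to 2.53), against 1.28% and 2.6%, and in other T cells 0.54 (−0.43 to 1.53) and 1.77 (0.94 to 2.67), the second against 1.89%. NK cells had 4, 11, 21 and 17 UMIs, with ratios of 1.36 (0.24 to 2.56) and 1.31 (0.13 to 2.55), against 1.53% and 2.46%. In B cells *Hic1* had 3, 3, 10 and 13 UMIs. The T cell divisions differed in ConA+Veh over Naïve. The ratio was 0.03 (−1.11 to 1.42) in CD8 and −0.60 (−2.39 to 1.53) in CD4 T cells. In other T cells it was −1.89 (−2.88 to −0.93), where 17.4% of genes were at least 2-fold lower. CD8 T cells were 173 of 538 T cells in Naïve and 400 of 807 in ConA+Veh, and the part of this shift was not tested. Of the other genes of this list, 6 were tested in T cells in each ligand contrast and none was past 2-fold. That is near the shares of all genes, of which 2.12% with TCDD and 2.42% with FICZ were at least 2-fold lower. Among the 6 was *Il10*, with 140 UMIs in ConA+Veh and 84 in ConA+TCDD (−0.33, −0.74 to 0.07). In NK cells *Slc7a5*, an amino acid transporter gene, was lower with FICZ, with 11 against 39 UMIs (−1.15, −2.26 to −0.15), where 4.12% of genes were at least 2-fold lower.

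**Figure D5:**
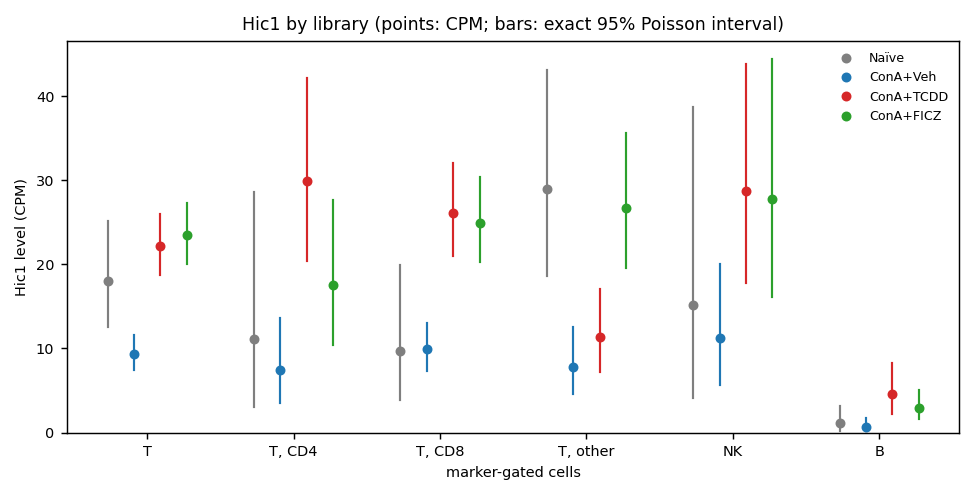
Level of *Hic1* in CPM (y axis) with exact 95% Poisson intervals in T cells, 3 divisions of them, NK and B cells (x axis), coloured by library. In T and in CD8 T cells both ligand libraries sit above ConA+Veh with no overlap, and in T cells ConA+TCDD and ConA+FICZ are at 22.2 and 23.4 CPM.

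The other lists were examined in B, T and NK cells for both ligands, and for FICZ also in macrophage and endothelial-gated cells, which were too few with TCDD. Of 9 genes of the receptor complex and its coactivators, 7 or 8 were tested in B, T and NK cells in each ligand contrast and none was past 2-fold. Between 1.06% and 4.12% of all genes were past 2-fold in a given direction in these classes, so a count of 0 is near those shares. *Hsp90ab1*, the constitutive Hsp90 gene, was at 6155 CPM in T cells of ConA+Veh and 6546 CPM in ConA+TCDD. The 2 genes of this list past 2-fold were *Ncoa1*, a coactivator, with 16 against 7 UMIs in macrophages of ConA+FICZ (1.78, 0.42 to 3.31, against 7.3% of all genes), and the corepressor *Nrip1*, with 5 against 18 in endothelial cells (−1.13, −2.92 to 0.35, against 4.14%). Of 10 other xenobiotic targets, 1 or 2 were tested per class, too few to set against the share of all genes, and none was past 2-fold. *Cyp1a2*, the hepatocyte partner of *Cyp1a1*, was found only in Naïve, with 9 UMIs. Of these, 3 each were in B- and NK-gated cells and 1 each in the monocyte, hepatocyte and stellate or fibroblast gates. The hepatocyte gate held 25, 7, 1 and 146 cells in library order. Of 8 genes of tryptophan breakdown, which supplies AhR ligands, *Kmo* was lower in B cells with TCDD, with 19 against 88 UMIs (−1.06, −1.86 to −0.33, against 3.32%), and *Il4i1*, an amino acid oxidase, was higher in T cells with FICZ, with 15 against 5 (1.92, 0.39 to 3.74, against 1.57%). Of 8 Nrf2 targets, *Hmox1* was lower with TCDD in T cells, with 28 against 93 UMIs (−1.33, −1.99 to −0.70, against 2.12% of genes), and in B cells, with 3 against 21 (−1.66, −4.04 to 0.09, against 3.32%). Over all cells *Hmox1* had 417 UMIs in ConA+TCDD and 2425 in ConA+Veh. The macrophage gate held 11 and 84 cells there, and the monocyte gate 38 and 128. The part of these cell numbers in the T and B cell values was not tested. *Gclm*, a subunit of the glutathione-synthesis enzyme, was lower with FICZ in NK cells, with 137 against 546 UMIs (−1.32, −1.60 to −1.04, against 4.12%), and in endothelial cells, with 48 against 162 (−1.04, −1.54 to −0.57, against 4.14%). In neutrophils 4 of the 7 Nrf2 targets tested were at least 2-fold lower with FICZ, with a median of −1.29 against 0.22 for all genes, of which 3.24% were lower. With TCDD 2 of 7 were lower there, against 5%. In monocytes 2 of 8 were lower with FICZ, against 2.22%, and 1 of 8 with TCDD, against 6.67%. With FICZ none of the 7 tested in B cells, 6 in T cells and 7 in macrophages was past 2-fold. Their medians were 0.09, 0.17 and −0.57, and 2.14%, 2.42% and 4.04% of all genes were at least 2-fold lower there. Neutrophils and monocytes were looked at after their values were seen. ConA+Veh was above Naïve for *Gclm*, by 4.03 (3.1 to 5.17) in NK and 1.83 (1.199 to 2.53) in endothelial cells.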

How the data were processed

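The submitters' processing notes name Cell Ranger 3.0.2 and mm10, with which the authors turned 10x Genomics 5′ reads into UMI counts. Deposited counts are raw and in whole numbers for each gene and barcode. Library totals were 5952445 UMIs for Naïve, 19252211 for ConA+Veh, 12077209 for ConA+TCDD and 16017797 for ConA+FICZ. No cell was left out, and no doublet caller was run.

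A cell joined the class for which it held most of 8 markers, with at least 2 and a lead of at least 1, and was otherwise unassigned. UMIs were summed per class. Ratio intervals, from the exact binomial distribution, were tested on simulated data. A sum of 0 was given a floor of 3 counts. Named genes were the 7 members in every class, list genes past 2-fold with at least 20 UMIs in B, T, NK, macrophage or endothelial cells, and the 3 genes most like each member with at least 100 UMIs. The members and lists were chosen with earlier results of these data known, and 1 listed gene is not reported here.

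Alternatives changed the scaling, the gates (Leiden clusters, leidenalg 0.10.2 with igraph 0.11.9), the cells kept, the UMI minimum and the thinning. Sums and intervals were computed in Python 3.11.15 (scipy 1.17.1, numpy 2.4.6 and pandas 2.3.3), clusters with scikit-learn 1.9.0 and plots with matplotlib 3.10.9.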

Additional observations from a re-analysis of the deposited data

Results flagged for a closer look

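*Tiparp* moved in opposite directions between classes in 2 contrasts. For ConA+FICZ over ConA+Veh the log2 ratio was 0.53 in neutrophil-gated and −0.93 in macrophage-gated cells, with intervals on opposite sides of 0. The median of all genes was 0.22 in neutrophils, inside the *Tiparp* interval (0.03 to 1.06), and 12.8% of genes were at least 2-fold higher. The monocyte gate was at 0.30 (−0.08 to 0.67) and the joined macrophage and monocyte gates at 0.10 (−0.25 to 0.44). For ConA+Veh over Naïve it was 2.92 in NK-gated cells, where the Naïve value rests on 1 UMI, and −1.90 in neutrophil-gated cells. With 1 library per group the difference between the classes was not tested.

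Cells that met no gate entered no comparison by class. Among the 277 such cells of ConA+FICZ, 1 cell with 620 UMIs held 10 *Cyp1a1* UMIs, where the 315 such cells of ConA+Veh held 0. It held 1 marker of a class and no endothelial marker.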

How the results depend on the processing

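No paired analysis was possible because each group has 1 library. The log2 ratio of *Cyp1a1* in endothelial cells stayed between 6.78 and 7.31 for FICZ and between 6.79 and 7.18 for TCDD under 8 alternatives. That of *Cyp1b1* for FICZ stayed between 1.18 and 2.03. These ranges do not show how few cells hold the UMIs. Without its top cell the *Cyp1a1* level of ConA+TCDD fell from 434.6 to 39.1 CPM (1 UMI), and that of ConA+FICZ from 574.9 to 411.0 CPM. The counts of pairs past 2-fold are small and moved with the settings. For TCDD, at least 10 UMIs gave 2 higher pairs, *Arnt* in neutrophils and *Ahr* in granulocyte progenitors. Cells scaled before averaging gave 2 lower, and Leiden clusters or at least 50 UMIs gave 0 lower. For FICZ, at least 50 UMIs gave 1 higher pair. Lower pairs were 2 with cells scaled before averaging, 3 with the mean UMI per cell, and 0 with Leiden clusters, at least 50 UMIs or an interval that must leave out 0. For ConA+Veh over Naïve, higher pairs were 2 with cells scaled before averaging, 7 with the mean UMI per cell, 3 at 10 and 0 at 50 UMIs, and lower pairs were 4 at 10 and 1 at 50 UMIs. The share of Naïve endothelial cells with *Cyp1a1* was 0% when thinned to 500 UMIs. Of 49 ratios, 4 moved beyond their counting interval with cells scaled before averaging (11 changed sign) and 9 with the mean UMI per cell (9 changed sign). Under the other 6 settings, which gave 46 to 49 of these ratios, 0 moved and between 0 and 5 changed sign. Causes were not tested.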

Other observations

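The genes whose levels were most like those of a member over 33 units of class and library, by Pearson's r of log2(CPM + 10) among 11118 genes, are given as a description, since units of 1 library share its depth. For *Ahr* they were *Akap11* (0.79), *Ints3* (0.79) and *Phf2* (0.78), for *Arnt* *Ndel1* (0.77), *Mtmr6* (0.73) and *Shkbp1* (0.70), and for *Tiparp* *1600014C10Rik* (0.93), *Fbxl5* (0.91) and the monocyte gene *Cd14* (0.90). For *Cyp1a1* they were *Mex3d* (0.92), *Mustn1* (0.91) and *Gprc5b* (0.90), which like *Cyp1a1* had between 106 and 147 UMIs in all. Among these units *Cyp1a1* was high only in the endothelial gates of Naïve (176.6 CPM, from 1 cell) and ConA+FICZ (574.9 CPM). Its r values therefore rest on those units. The other members had too few UMIs for this.

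*Il22*, the cytokine gene best known as an AhR target in lymphocytes, had 16 UMIs in the 4 libraries, all in 1 ungated cell of ConA+Veh. *Hic1* had 4, 3, 6 and 18 UMIs in the monocyte gate in library order, at 12.67, 2.11, 11.23 and 16.91 CPM, lowest in ConA+Veh. The log2 ratio over vehicle was 3.001 (1.23 to 5.41) for FICZ, where 5.04% of the genes tested were at least 2-fold higher. For TCDD it was 2.41 (0.18 to 5.04), with too few UMIs to be counted and in the gate that failed the marker check. These values lie outside the rule for named genes and were chosen after the data were seen.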
